A study of Mus musculus with 12 samples.

Results

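The 46 genes described here encode lysosomal enzymes, their protein cofactors, lysosomal membrane proteins and the paired transcription factors Tfeb and Tfe3. They were chosen as a named list of genes, without a threshold on their values, and all 46 were found among the 21125 genes of an RNA-seq table of mouse microglia. The study compared sorted primary microglia from the midbrain of mice labelled Ppargc1a FF CreER, called KO here, with those of mice labelled Ppargc1a FF, called WT here. Ppargc1a encodes the coactivator PGC-1alpha, and MPTP is a toxin of dopamine neurons used to model Parkinson disease in mice. The 4 groups were KO with MPTP (KO MPTP), KO with PBS (KO PBS), WT with MPTP (WT MPTP) and WT with PBS (WT PBS), each labelled with 3 samples. Both genotypes carry the FF allele of Ppargc1a and all groups are labelled 6 weeks post tamoxifen, so the CreER label is what separates KO from WT. No source used here gives the promoter that drives CreER, the age or sex of the mice, or whether animals were pooled.

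The 12 columns held 6 separate profiles. In each group the third column equalled 0.1 plus 0.99 times the mean of the first and second, WT MPTP 2 equalled 1.02 times WT MPTP 1, and KO MPTP 1 equalled 1.02 times KO PBS 2. These relations held within rounding for every row of the 46 genes. One profile therefore stands under both the KO PBS and the KO MPTP label. It is called KO PBS 2 here. It was used as a KO profile in the comparison of genotypes and left out of the comparisons that need a treatment label. The separate profiles are KO MPTP 2, KO PBS 1, KO PBS 2, WT MPTP 1, WT PBS 1 and WT PBS 2, and nothing in the labels says that they came from separate animals, so the p-values measure the spread between these profiles, which may be technical. Values are FPKM, a fragment count scaled to transcript length and to library size, summed over the table rows of each gene. Read depth is unknown, and the FPKM of a profile summed to 388861 to 425554.

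Lysosomes are acidic organelles that break down proteins, glycans and lipids delivered by endocytosis, phagocytosis and autophagy. Most lysosomal enzymes are made in the endoplasmic reticulum, tagged with mannose 6-phosphate in the Golgi and carried to the lysosome by receptors. TFEB and TFE3 are basic helix-loop-helix factors that bind the E-box-like CLEAR motif in the promoters of many lysosomal genes. Microglia are the phagocytes of the brain and are rich in lysosomes, and inherited loss of several of these genes causes lysosomal storage disease with neurodegeneration.

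The core of the CLEAR motif is CACGTG, and the promoter stretches that carry it are shown for 4 members because TFEB and TFE3 are known to bind it. Promoter windows of 300 bases, 250 before and 50 after each annotated start, were read from RefSeq on GRCm38.p6 for 42 of the 46 genes. CACGTG reads the same on both strands, so that 1 search covers both. It stood in a window of 13 of the 42 genes (31.0%), against 8.09% of all 27025 genes with a window. The longer form TCACGTGA, which contains CACGTG, stood in 5 of the 42 (11.9%), against 1.12% of all genes. In the lines that follow, each stretch is written 5′ to 3′ on the strand of its gene, and capitals mark CACGTG.
Mcoln1, chr8:3500433-3500494, plus strand: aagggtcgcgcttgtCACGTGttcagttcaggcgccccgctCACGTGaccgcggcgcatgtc
Cln3, chr7:126583337-126583400, minus strand: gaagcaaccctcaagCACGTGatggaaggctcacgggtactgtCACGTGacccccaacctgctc
Lamp1, chr8:13159085-13159160, plus strand: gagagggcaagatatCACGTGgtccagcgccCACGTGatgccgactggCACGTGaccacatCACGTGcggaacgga
Ctsd, chr7:142387905-142387940, minus strand: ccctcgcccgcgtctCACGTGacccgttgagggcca
Mcoln1 and Cln3 gave the largest differences between KO MPTP and KO PBS below, Ctsd is among the most abundant members, and the Lamp1 stretch holds 4 copies. The window of Ctsd holds another copy, at positions -245 to -240 from the start, that is not shown. The other genes with a copy were Arsa, Ctsa, Ctsl, Gaa, Gla, Glb1, Lgmn, Naglu and Sgsh. A copy of these letters is a description of the sequence, not a measured binding site.

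The lysosomal genes were among the most abundant transcripts of these cells. Their summed FPKM made up 2.90% of the total in KO MPTP 2, 2.92% in KO PBS 1, 2.83% in KO PBS 2, 2.91% in WT MPTP 1, 2.98% in WT PBS 1 and 2.94% in WT PBS 2. The median member stood at percentile 93.2 of the 10634 genes tested, by mean FPKM over the 6 profiles, and 40 of the 45 members tested lay above the median gene. Genes were tested where 3 or more of the 6 profiles reached 1 FPKM. Ctsh, which encodes the aminopeptidase cathepsin H, was the single member that did not pass, with 0.11, 0.21 and 0.05 FPKM in the KO profiles and 0.10, 0.02 and 0.08 FPKM in the WT profiles.

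Among the cysteine cathepsins, Ctsk stood far above the others. It encodes cathepsin K, a collagen-degrading protease best known from osteoclasts. Ctsk had 2577 FPKM in KO MPTP 2, 2596 in KO PBS 1 and 2408 in KO PBS 2, against 2814 in WT MPTP 1, 2733 in WT PBS 1 and 2632 in WT PBS 2. Every KO value lay below every WT value, with KO PBS 1 and WT PBS 2 the closest. Ctss, the cathepsin that trims the invariant chain of MHC class II, had 650, 632 and 596 FPKM in the KO profiles in the same order, against 692, 671 and 649 FPKM in the WT profiles, with KO MPTP 2 and WT PBS 2 within 1 FPKM of each other. Ctsl had 491, 472 and 467 FPKM in the KO profiles, against 534, 490 and 499 FPKM in the WT profiles. Ctsz, Lgmn and Ctsb averaged 660, 424 and 350 FPKM, and Ctsc, the activator of serine proteases in immune granules, averaged 47.9 FPKM. Legumain, the product of Lgmn, is the asparaginyl endopeptidase that matures several cathepsins.

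The other peptidases were led by Ctsd, the main aspartic protease of the lysosome. Ctsd had 1418, 1355 and 1317 FPKM in KO MPTP 2, KO PBS 1 and KO PBS 2, against 1457, 1414 and 1492 FPKM in WT MPTP 1, WT PBS 1 and WT PBS 2. The groups overlapped, since KO MPTP 2 lay above WT PBS 1. Ctsa, a carboxypeptidase that also protects beta-galactosidase and neuraminidase, had 643, 594 and 580 FPKM in the KO profiles, against 649, 637 and 668 FPKM in the WT profiles. Tpp1, a tripeptidyl peptidase, had 103, 90.8 and 96.3 FPKM in the KO profiles, against 99.3, 98.2 and 106 FPKM in the WT profiles.

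The 11 glycosidases averaged 7.06 to 177 FPKM and the 4 sulfatases 2.94 to 83.6 FPKM. Hexa, the alpha subunit of beta-hexosaminidase, was the highest glycosidase, with 183, 167 and 165 FPKM in KO MPTP 2, KO PBS 1 and KO PBS 2, against 178, 181 and 184 FPKM in the WT profiles. Idua, the iduronidase of heparan and dermatan sulfate, was the lowest, with 8.43, 6.11 and 6.27 FPKM in the KO profiles, against 6.91, 7.50 and 7.15 FPKM in the WT profiles. KO MPTP 2 was the highest and KO PBS 1 the lowest of the 6 for Idua. Arsb, which desulfates dermatan and chondroitin sulfate, was the highest sulfatase, with 83.3, 83.2 and 75.8 FPKM in the KO profiles, against 86.7, 88.9 and 83.6 FPKM in the WT profiles. Ids, the iduronate sulfatase, was the lowest, with 2.97, 3.21 and 2.65 FPKM in the KO profiles, against 3.08, 3.13 and 2.60 FPKM in the WT profiles. Its lowest and highest values lay in different genotypes, and the groups overlapped.

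The lipid and acyl hydrolases ranged from Asah1, the acid ceramidase, to Smpd1, the acid sphingomyelinase. Asah1 had 86.7, 81.7 and 75.7 FPKM in the KO profiles, against 88.3, 89.1 and 78.6 FPKM in the WT profiles. Smpd1 had 9.36, 8.64 and 8.52 FPKM in the KO profiles, against 9.60, 9.01 and 9.84 FPKM in the WT profiles. Both overlapped between genotypes. Ppt1, which removes fatty acyl groups from proteins, did not overlap, with 24.0, 22.8 and 22.3 FPKM in the KO profiles, against 25.2, 24.6 and 24.6 FPKM in the WT profiles. Among the cofactor proteins, Psap, the precursor of the saposins that present sphingolipids to their hydrolases, had 935, 862 and 842 FPKM in the KO profiles, against 956, 921 and 949 FPKM in the WT profiles. Npc2, the soluble protein that hands cholesterol to NPC1, had 120, 117 and 112 FPKM in the KO profiles, against 126, 121 and 125 FPKM in the WT profiles. Grn, which encodes progranulin, averaged 401 FPKM.

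Of the 10 membrane proteins, Lamp1, a main glycoprotein of the lysosomal membrane, was the highest, with 550, 514 and 518 FPKM in the KO profiles, against 564, 552 and 549 FPKM in the WT profiles. Scarb2, the receptor that carries beta-glucocerebrosidase to lysosomes, was the lowest, with 22.4, 21.9 and 21.1 FPKM in the KO profiles, against 23.7, 23.2 and 21.6 FPKM in the WT profiles. Mcoln1, the calcium channel TRPML1 and a reported target of TFEB, had 33.9 FPKM in KO MPTP 2, 25.0 in KO PBS 1 and 26.1 in KO PBS 2, against 27.3, 27.8 and 27.9 in the WT profiles. KO MPTP 2 stood above the other 5 profiles, and KO PBS 1 and KO PBS 2 lay below all WT profiles. Cln3, a membrane protein mutated in juvenile neuronal ceroid lipofuscinosis, had 34.9 FPKM in KO MPTP 2, 25.6 in KO PBS 1 and 28.1 in KO PBS 2, against 30.4, 27.1 and 29.9 in the WT profiles. The transcription factor Tfe3 had 24.2, 22.5 and 22.7 FPKM in the KO profiles, against 24.3, 23.0 and 23.5 FPKM in the WT profiles. Tfeb had 7.56, 7.16 and 7.65 FPKM in the KO profiles, against 7.29, 7.82 and 8.43 FPKM in the WT profiles.

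**Figure D1:**
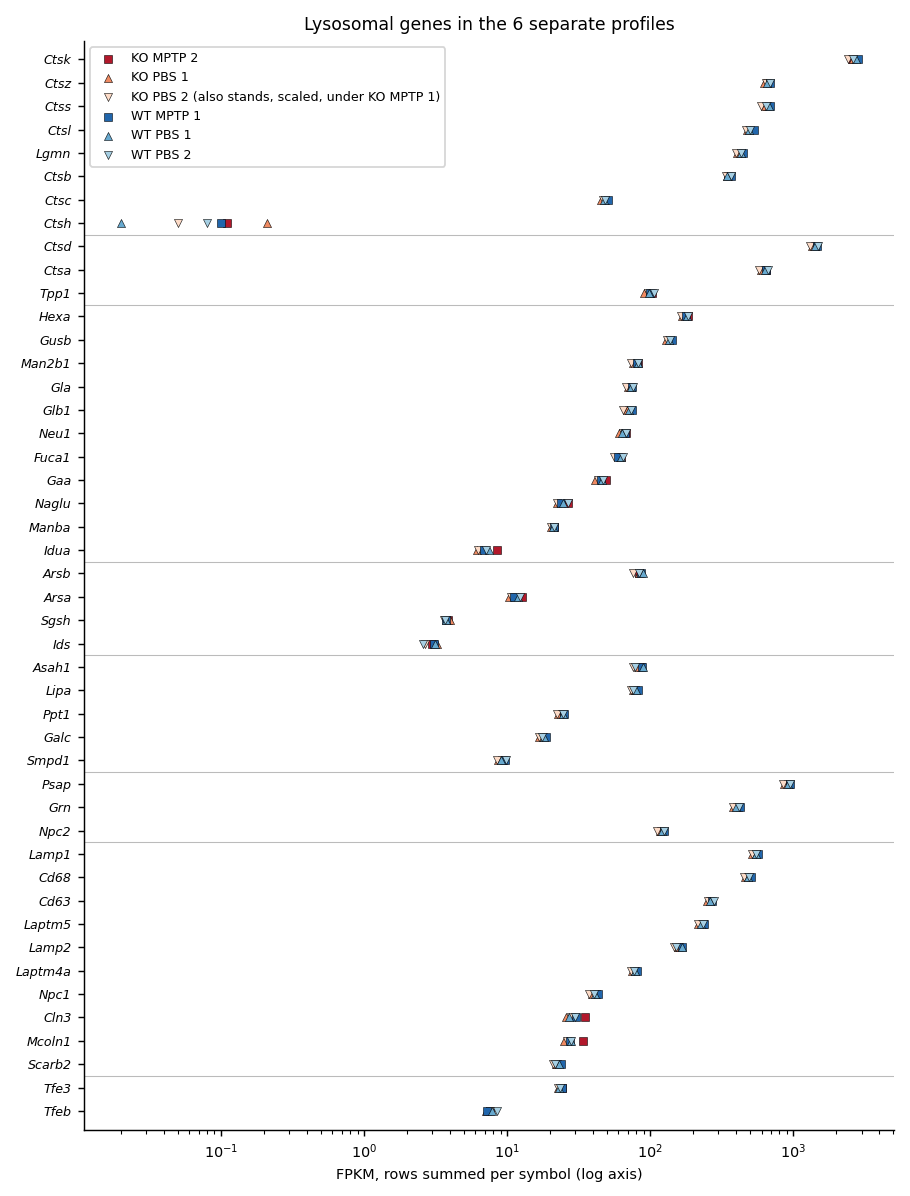
FPKM of the 46 lysosomal genes, with rows summed per gene, on a log axis, in each of the 6 separate profiles (symbols), with grey lines between roles. The profiles lie almost on top of each other for most genes, Ctsk is the highest at 2408 to 2814 FPKM, Ctsh is the lowest, and KO MPTP 2 stands to the right for Mcoln1, Cln3 and Idua.

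Levels differed far more between genes than between profiles. Ctsk averaged 2627 ± 140 FPKM, Ctsd 1409 ± 64.4 FPKM and Psap 911 ± 47.5 FPKM (SD, n = 6 profiles), and the ranges of these 3 did not overlap. Ctsz at 660 ± 26.8, Ctss at 648 ± 33.0 and Ctsa at 629 ± 34.2 FPKM came next and their ranges overlapped. The median SD of a member over the 6 profiles was 0.07 on the scale of log2(FPKM + 1), and that of all genes tested was 0.07. Idua, Cln3 and Mcoln1 had the largest SD of the members tested, each 0.15 on that scale. WT PBS 2 minus WT PBS 1, the difference within a group, ran from -0.20 for Ids to 0.14 for Cln3, with a median of 0.02.

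The label of the genotype was checked on Ppargc1a itself, which had 0.42, 0.33 and 0.12 FPKM in KO MPTP 2, KO PBS 1 and KO PBS 2, against 2.72, 5.70 and 6.21 FPKM in WT MPTP 1, WT PBS 1 and WT PBS 2. The phagocyte genes Tyrobp, Fcer1g, Adgre1 and Csf1r averaged 433, 326, 130 and 117 FPKM. Several genes that define microglia at rest were near 0, with Cx3cr1 at 0.04 to 0.06, P2ry12 at 0.15 to 0.26 and Siglech at 0.01 to 0.05 FPKM, and 5 of 9 such markers averaged under 1 FPKM. The word microglia follows the sample labels here, and the identity of the cells was not tested. The levels given may therefore not be those of microglia at rest. Summed neuron markers (4 of 8 found) reached at most 0.02 FPKM in KO and 0.05 FPKM in WT profiles, and summed lymphocyte markers (6 of 7) 0.27 and 0.37 FPKM. Astrocyte markers (4 of 6) summed to 2.93 to 3.33 FPKM in KO and 2.88 to 3.29 FPKM in WT profiles, oligodendrocyte markers (4 of 6) to 8.35 to 9.05 and 8.85 to 9.71, granulocyte markers (5 of 6) to 4.28 to 6.47 and 4.16 to 6.28, and erythroid markers (2 of 4) to 0.13 to 0.18 and 0.07 to 0.15. Vessel markers (4 of 6) summed to 82.1 to 90.4 and 86.2 to 90.2 FPKM, nearly all of it Flt1, while the vessel gene Cdh5 was at 0. These are bulk samples, in which fewer cells of a type and less RNA per cell cannot be told apart.

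No lysosomal gene passed the test between KO and WT. Of the 45 tested, 41 had a log2 fold change below 0, but each was small, with the largest at -0.11 for Ctsk, and the 95% confidence intervals of all 45 lay between -0.24 and 0.19. The test was limma on log2(FPKM + 1) over 3 KO and 3 WT profiles, with Benjamini-Hochberg adjustment over the 10634 genes. Under it 4 of all genes (0.0376%) had an adjusted p under 0.05, and the lowest adjusted p of a member was 0.997. No member had an unadjusted p under 0.05, against 371 of all genes (3.49%). MPTP and PBS profiles were not balanced, with 1 or 2 profiles of each in a genotype.

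The 5 members with the largest log2 fold changes in KO against WT were Ctsk at -0.11 ± 0.06, Ctsa at -0.11 ± 0.06, Ppt1 at -0.10 ± 0.06, Psap at -0.10 ± 0.06 and Ctss at -0.10 ± 0.06 (SE). Psap was -0.023 in its highest table row alone, and Ctss was -0.065 without KO PBS 2. Below 0 stood all 7 tested cysteine cathepsins and legumain, the 3 other peptidases, the 11 glycosidases, the 5 lipid and acyl hydrolases, the 3 cofactor proteins and both transcription factors. Of the 4 sulfatases 2 lay below 0, and of the 10 membrane proteins 8. The 4 genes above 0 were Sgsh, Mcoln1, Cln3 and Ids, at 0.03, 0.02, 0.01 and 0.00.

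Genes at large also leaned below 0, though in a smaller share than the 91.1% of the members tested. Of all genes tested 69.5% lay below 0, and of the 5374 genes with a mean of at least 10 FPKM, a level that 40 members reached, 78.9% did. The median log2 fold change was -0.07 for the members, -0.03 for all genes and -0.04 for genes of at least 10 FPKM. With the median gene set equal in every profile, 41 of 45 members still lay below 0, against 52.1% of all genes and 60.7% of genes of at least 10 FPKM, and the members' median was -0.05. In 7 members every KO profile lay below every WT profile, and 7.19% of all genes did the same. These were Ctsk, Gusb, Arsb, Ppt1, Npc2, Cd68 and Cd63. Gusb is beta-glucuronidase, and Cd68 and Cd63 are glycoproteins of phagocyte lysosomes and late endosomes. No member had every KO profile above every WT profile, against 0.818% of all genes.

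**Figure D2:**
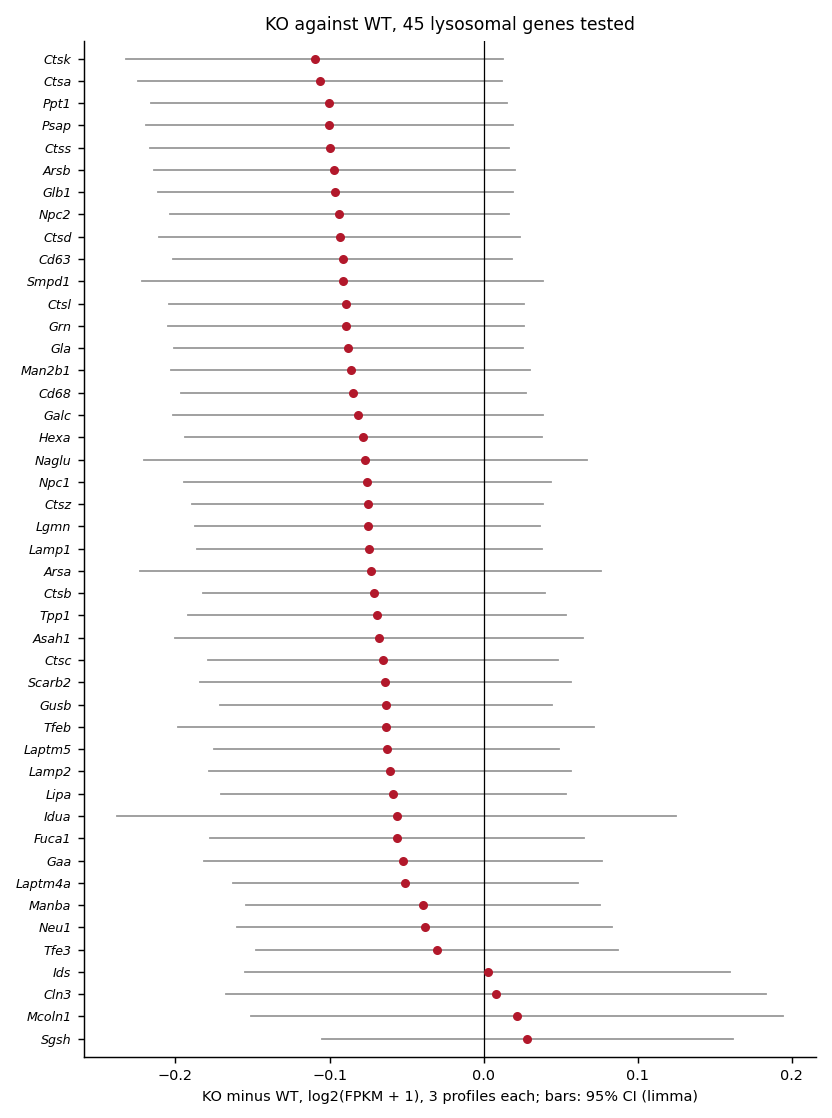
Difference KO minus WT in log2(FPKM + 1) for the 45 lysosomal genes tested, from 3 profiles each, with 95% confidence intervals from limma as bars. All 45 intervals cross 0, and 41 points lie to the left of it.

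The lowest values lay mostly in KO PBS 1 and in KO PBS 2, the profile that carries both treatment labels. Of the 45 members 28 were lowest in KO PBS 2 and 16 in KO PBS 1, against 22.3% and 42.0% of all genes, and 21 were highest in WT MPTP 1, against 31.6% of all genes. Summed FPKM was 409278 in KO MPTP 2, 388861 in KO PBS 1 and 389882 in KO PBS 2, against 425554 in WT MPTP 1, 401733 in WT PBS 1 and 411690 in WT PBS 2. The 9 phagocyte markers found of 10 were lower in KO in sum, at 1129 to 1234 FPKM in KO and 1249 to 1291 FPKM in WT profiles. Of the 9, 8 had a log2 fold change below 0, with a median of -0.07. With the median gene set equal in every profile, 6 of these markers lay below 0. One of them, the integrin gene Itgam, had 75.9, 72.7 and 66.8 FPKM in the KO profiles, against 86.5, 88.3 and 94.97 FPKM in the WT profiles. The part of these totals and markers in the members' values was not tested. Without KO MPTP 2, 44 of 45 members lay below 0 with a median of -0.11, against 80.7% of all genes below 0. There 16 members had an unadjusted p under 0.05, against 10.5% of all genes, and the lowest adjusted p of a member in limma was 0.462. Without KO PBS 2, the profile under both labels, 40 lay below 0 with a median of -0.05, against 67.1% of all genes below 0.

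The remaining comparisons rest on 5 profiles, with KO PBS 2 left out. WT PBS is the only group with 2 profiles there, so limma took the spread from that pair and from the trend over genes, and the single profiles are assumed to vary like it. The comparisons share profiles with each other and are not independent.

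MPTP in WT microglia gave small differences in the lysosomal genes, and none passed the test, against 0.254% of all genes in limma with Benjamini-Hochberg adjustment. No member had an unadjusted p under 0.05, against 2.65% of all genes. Of the 45 members 33 lay above 0, but only 20 did with the median gene set equal in every profile, so the lean of the list turned. Of all genes 48.3% lay below 0 at that setting, and without it 73.0% lay above 0. The median log2 fold change was 0.03 for the members and 0.04 for all genes. The largest were Tfeb at -0.14 ± 0.10 and Ctsl at 0.11 ± 0.09 (SE). Tfeb was -0.29 in its highest table row alone and -0.089 without WT PBS 2, with KO PBS 2 counted as KO PBS. Ctsl was 0.071 with the median gene set equal in every profile. The intervals of the 45 members ran from -0.35 to 0.36. S100a8, the 1 granulocyte marker tested, had 5.75 FPKM in WT MPTP 1, against 3.75 and 4.35 FPKM in WT PBS 1 and WT PBS 2, and 5.76 FPKM in KO MPTP 2, against 3.81 and 3.68 FPKM in KO PBS 1 and KO PBS 2. Its log2 fold changes with MPTP were 0.42 in WT and 0.49 in KO, with adjusted p-values in limma of 0.566 and 0.215, and its part in the members' values was not tested.

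In KO microglia, MPTP against PBS gave its largest differences in Cln3, Mcoln1 and Idua, but none of the 45 members passed the test, against 0.292% of all genes. Cln3 was 0.43 ± 0.10, Mcoln1 0.43 ± 0.09 and Idua 0.41 ± 0.11 higher on the log2(FPKM + 1) scale in KO MPTP 2 than in KO PBS 1 (SE). Their adjusted p-values in limma were 0.168, 0.117 and 0.247. Arsa at 0.27, Gaa at 0.24 and Naglu at 0.23 followed, and these 6 had an unadjusted p under 0.05, against 9.23% of all genes. Arsa encodes the sulfatase of sulfatide, Gaa acid alpha-glucosidase and Naglu a glucosaminidase of heparan sulfate. KO PBS 1 minus KO PBS 2, 2 profiles of which the second carries both labels, ran from -0.13 to 0.21 over the members. Over 10 alternatives with separate profiles the Mcoln1 difference ran from 0.16, in its highest table row alone, to 0.44, with an adjusted p of 0.052 to 0.886, and with KO PBS 2 counted as KO MPTP it was 0.25. Cln3 ran from 0.20, also in its highest row alone, to 0.44, and the sign of Idua turned in its highest row, to -0.098. With the median gene set equal in every profile 3 members had an unadjusted p under 0.05, against 3.76% of all genes.

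Most of the list leaned the same way as other genes in this comparison. Of the 45 members 42 lay above 0, with Ids, Sgsh and Ctsk below, but with the median gene set equal in every profile 15 lay above 0 and 30 below. Of all genes 54.4% lay below 0 at that setting, and without it 86.5% lay above 0. The median was 0.08 for the members and 0.09 for all genes. The 13 genes with CACGTG in a promoter window had a median of 0.10, and the 29 without it had 0.08. In WT MPTP against WT PBS these medians were 0.003 and 0.035, and in KO PBS against WT PBS -0.105 and -0.084. They were -0.075 and -0.069 in KO against WT and -0.013 and -0.040 in KO MPTP against WT MPTP. For the interaction of genotype and MPTP they were 0.087 and 0.050. A difference between these sets was not tested.

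**Figure D3:**
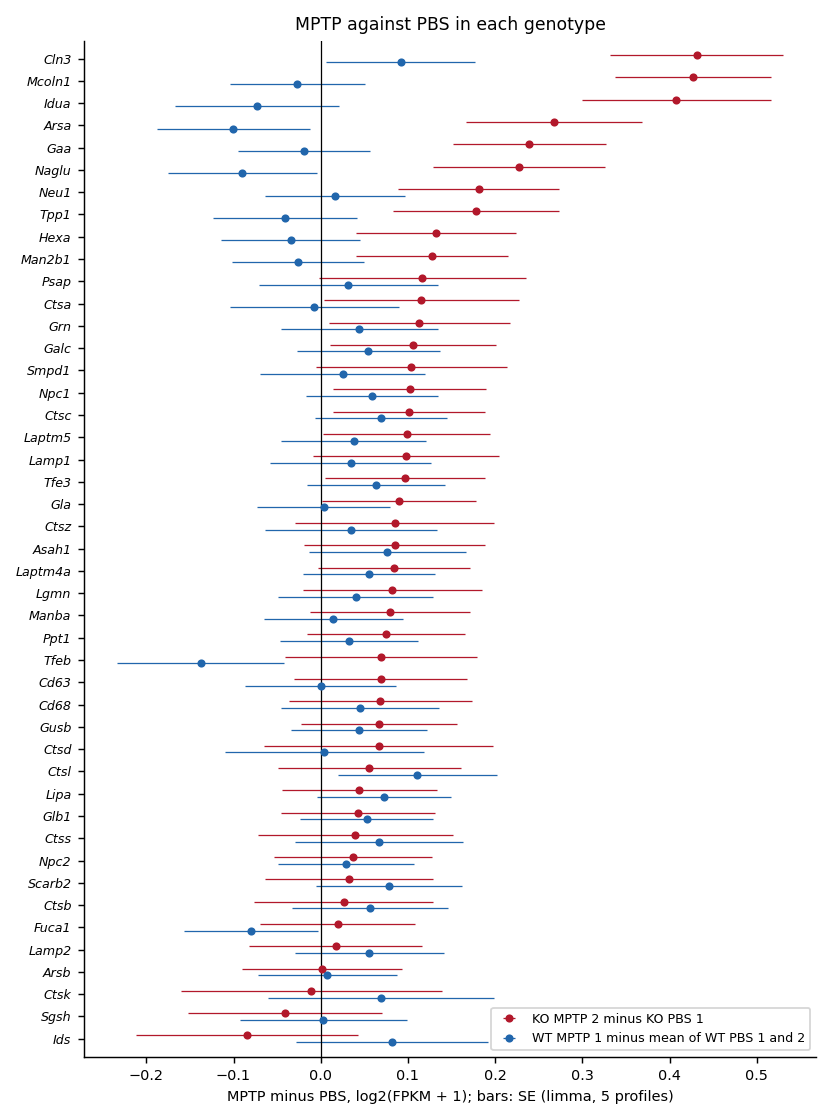
Difference MPTP minus PBS in log2(FPKM + 1) for the 45 lysosomal genes tested, in KO (red, KO MPTP 2 minus KO PBS 1) and in WT (blue, WT MPTP 1 minus the mean of the WT PBS pair), with limma standard errors as bars. Cln3, Mcoln1 and Idua lie at 0.41 to 0.43 in KO, and no gene passed the adjusted threshold in either genotype.

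The higher FPKM of those 3 genes in KO MPTP 2 lay mainly outside their most abundant table row. The table gives several rows for 1 gene, and 34 members had more than 1 row among the 45 tested. The highest Mcoln1 row had 21.2 FPKM in KO MPTP 2, against 18.9 to 20.7 FPKM in the other 5 profiles, while its other rows summed to 12.7 FPKM in KO MPTP 2, against 6.07 to 8.18 FPKM. The highest Cln3 row had 11.5 FPKM in KO MPTP 2, against 9.43 to 11.3 FPKM, and its other rows 23.3 FPKM, against 15.7 to 19.8 FPKM. For Idua the highest row had 2.99 FPKM in KO MPTP 2, against 2.38 to 3.27 FPKM, and the other rows 5.44 FPKM, against 2.84 to 5.12 FPKM. The highest row of Idua thus did not set KO MPTP 2 apart. Rows outside the highest were highest in KO MPTP 2 in 9 of the 34 members (26.5%), against 32.9% of the 8369 genes tested with more than 1 row. Idua overlaps Dgkq and Slc26a1 and Cln3 overlaps Apobr on the opposite strand in the GENCODE M21 annotation of GRCm38. Other members, such as Ctsd with Gm49369, Ctsa with Pltp and Lamp1 with Grtp1, also overlap annotated genes, and none was found for Mcoln1. These overlaps are of whole gene spans with introns, and overlap of exons was not measured. The protocol does not say whether strand was used, and the part of reads from these neighbours was not tested.

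**Figure D4:**
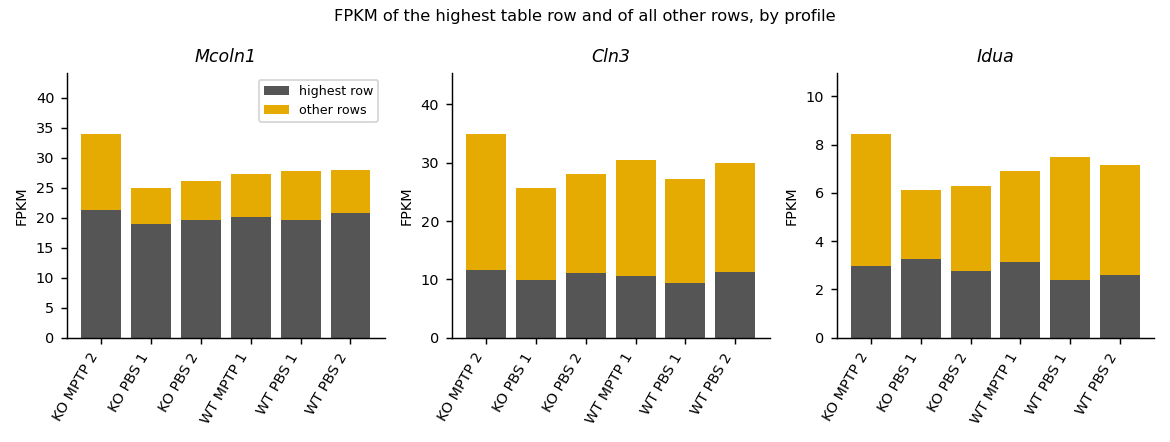
FPKM of the highest table row (dark) and of all other rows together (yellow) of Mcoln1, Cln3 and Idua in each of the 6 profiles, KO at the left. In KO MPTP 2 the yellow part of Mcoln1 is 12.7 FPKM, against 6.07 to 8.18 FPKM in the others, while the dark part is 21.2 FPKM, against 18.9 to 20.7 FPKM.

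Between KO PBS and WT PBS no member passed the test, against 0.226% of all genes, and 43 of the 45 lay below 0, with Ids and Sgsh above. Of all genes 77.9% lay below 0. The median was -0.10 for the members and -0.06 for all genes. Idua at -0.23 ± 0.09 and Arsa at -0.20 ± 0.09 (SE) were the largest, each with an adjusted p of 0.909 in limma, and were the only 2 members with an unadjusted p under 0.05, against 4.42% of all genes. With the median gene set equal in every profile no member had one in limma, against 2.35% of all genes. Arsa was -0.11 in its highest row alone. In the highest row of Idua alone the sign turned, to 0.30. With the median gene set equal in every profile 33 of 45 members lay below 0, against 50.3% of all genes.

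Between KO MPTP and WT MPTP, 1 profile each, no member passed the test either, against 0.103% of all genes. There 31 members lay below 0 and 14 above, with 53.6% of all genes below, and the medians were -0.03 and -0.01. Mcoln1 was 0.30 ± 0.09 and Idua 0.25 ± 0.11 higher in KO MPTP 2 (SE), with adjusted p-values of 0.631 and 1.00 in limma. They were the 2 members with an unadjusted p under 0.05, against 3.59% of all genes. In the highest row alone the Idua value was -0.053 and the Mcoln1 value 0.068.

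The difference between the MPTP differences of KO and WT was tested as an interaction. No member passed, against 0.0752% of all genes. Idua at 0.48 ± 0.14 and Mcoln1 at 0.45 ± 0.12 (SE) were the largest, with adjusted p-values of 0.515 and 0.348 in limma. With Arsa, Cln3 and Naglu these were the 5 members with an unadjusted p under 0.05, against 5.17% of all genes. For Idua the highest row alone gave -0.35, and for Mcoln1 0.16. With the median gene set equal in every profile 3 members had an unadjusted p under 0.05, against 3.66% of all genes. Of the 45 members 34 lay above 0, but only 19 did with the median gene set equal in every profile. Of all genes 54.3% lay below 0 at that setting. Without it 67.1% lay above 0, and the median was 0.05 for the members and for all genes.

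Neither transcription factor passed the test in any comparison. Tfeb had a log2 fold change of -0.06 in KO against WT and 0.07 in KO MPTP against KO PBS, and Tfe3 had -0.03 and 0.10, all with intervals that cross 0. The related factor Mitf averaged 8.80 FPKM.

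None of the other lysosomal genes tested passed in any of the 6 comparisons. The shares of all genes that passed were small too and are given with each comparison above. Of 38 other hydrolases 32 were tested, and 29 of them lay below 0 in KO against WT with a median of -0.07. The most abundant were Lyz2, lysozyme 2, at 1095 FPKM and Ifi30, a thiol reductase of antigen processing, at 370 FPKM. Of 38 other membrane proteins and transporters 34 were tested, and 29 lay below 0 with a median of -0.04, led by Gpnmb, a glycoprotein of phagocytes, at 3017 FPKM and Glmp at 327 FPKM. Of 28 genes that tag and sort lysosomal enzymes 27 were tested, and 24 lay below 0 with a median of -0.04, led by the late endosomal GTPase Rab7 at 132 FPKM and the retromer subunit Vps35 at 101 FPKM. Of 30 genes for lysosomal gene regulators and the docking of mTORC1 28 were tested, and 21 lay below 0 with a median of -0.04, led by the 14-3-3 gene Ywhaz at 146 FPKM and the Ragulator subunit Lamtor1 at 65.8 FPKM. Of 15 inhibitors of lysosomal proteases 8 were tested, and 7 lay below 0 with a median of -0.10, led by the cystatins Cstb at 370 FPKM and Cst3 at 252 FPKM. Of all genes tested 69.5% lay below 0 in KO against WT, with a median of -0.03. With the median gene set equal in every profile, 26, 24, 18, 15 and 6 genes of these lists lay below 0, in the same order. Of all genes 52.1% did. In KO MPTP against KO PBS, 26 of the 32 other hydrolases, all 34 membrane proteins and all 27 sorting genes tested lay above 0, against 86.5% of all genes. With the median gene set equal in every profile 10, 21 and 12 of them did. Of all genes 54.4% lay below 0 at that setting.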

How the data were processed

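RNA of sorted midbrain microglia was sequenced in 12 labelled samples, 3 for each of 4 groups. The authors deposited 1 table of 67355 rows, taken as FPKM from its values and from Cufflinks in the submitters' processing notes, which also name CASAVA 1.5, TopHat, Bowtie 0.12.7 and the build mm9. The FPKM values carry no counts, so depth is unknown and no interval for counting error can be given. Rows were summed per gene symbol after the trailing row number was removed, and 1 row with text in a cell was left out. The column relations failed in 49 rows, none of them of a listed gene.

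From there, log2(FPKM + 1) of genes with at least 1 FPKM in at least 3 of 6 profiles was tested with limma 3.58.1 (trend, R 4.3.3), two-sided, with Benjamini-Hochberg adjustment within each comparison at 0.05. KO against WT used 6 profiles with 4 residual degrees of freedom. All other comparisons used 5 with 1, and in data simulated like these that fit gave more false calls than its threshold allows. Simulated log2 changes of 0.25 were recovered at 29.3% in KO against WT and 0.6% in KO MPTP against KO PBS. For changes of 0.5 the recovery was 99.4% and 83.65%. A gene that did not pass in KO against WT may therefore still differ by about 0.25. In the comparisons with 5 profiles it may differ by more, since changes of 0.5 were not all recovered there. Alternatives were the pseudocount 0.1, no filter, median centring, the highest row per symbol, KO PBS 2 as KO PBS or KO MPTP, each profile left out, a replicate block and all 12 columns as libraries.

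The genes and lists were chosen with earlier results of these data known. Values in every profile are given for the 5 largest fold changes of KO against WT, the 2 largest of each other comparison, the highest and lowest gene of each role, and Tfeb, Tfe3 and Mcoln1. Motifs were searched as exact letters in RefSeq promoter windows of GRCm38.p6, and no coordinate was converted from mm9.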

Additional observations from a re-analysis of the deposited data

How the results depend on the processing

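No lysosomal gene was called in any of 61 combinations of a comparison and an alternative setting that used separate profiles. These combinations share profiles, and several come from the same fit, so they are not separate checks. Calls appeared only when all 12 deposited columns were entered as libraries, which counts computed columns as replicates: 21 in KO against WT, 27 in KO PBS against WT PBS and 25 in KO MPTP against WT MPTP, all lower, and 7 higher in WT MPTP against WT PBS. Among all genes that entry gave 1023 in KO against WT, 2149 in WT MPTP against WT PBS, 1321 in KO PBS against WT PBS, 1539 in KO MPTP against WT MPTP and 127 in the interaction, against 4, 27, 24, 11 and 8. With no filter 0 genes were called in each of the 6 comparisons. With the highest row per symbol the counts were 0 in WT MPTP against WT PBS, 1 in KO MPTP against KO PBS, 8 in KO PBS against WT PBS, 0 in KO MPTP against WT MPTP and 0 in the interaction, and Idua reversed to -0.098, 0.30, -0.053 and -0.35 in the last 4. Median centring left 1 in KO against WT. KO PBS 2 as KO PBS gave 39 in KO PBS against WT PBS and 4 in the interaction, and as KO MPTP it gave 16 in WT MPTP against WT PBS, 2 in KO MPTP against KO PBS and 2 in KO MPTP against WT MPTP. Leaving out 1 profile at a time gave 1 to 50 in KO against WT (26 without KO PBS 2). In the other comparisons it was done with KO PBS 2 entered as KO PBS, so that 2 choices changed together, and gave 8 to 27 in WT MPTP against WT PBS, 11 to 13 in KO MPTP against KO PBS, 16 to 32 in KO PBS against WT PBS, 7 to 11 in KO MPTP against WT MPTP and 1 to 4 in the interaction. The replicate block gave 71 in KO against WT, and together with KO PBS 2 entered as KO PBS it gave 38 in KO PBS against WT PBS, 7 in KO MPTP against WT MPTP and 0 in the interaction, with 0 lysosomal genes. The samples share only a number: PBS 2 minus PBS 1 correlated at r = 0.23 between WT and KO over 10634 genes, which are not independent replicates. The causes of these shifts were not tested. Of 214 alternative values for 19 named fold changes 203 kept their direction and side, 4 reversed and 7, with the 12 columns, passed the threshold.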

Other observations

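Tpcn2, which encodes a lysosomal ion channel and was picked after its values were seen, had 9.51 FPKM in KO MPTP 2, against 6.74 FPKM in KO PBS 1 and 7.95 FPKM in KO PBS 2, with 7.04 FPKM in WT MPTP 1 and 6.98 and 7.58 FPKM in the WT PBS profiles. KO MPTP 2 was the highest of the 6 profiles. Its log2 fold change in KO MPTP against KO PBS was 0.44, with an adjusted p of 0.217 in limma.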
